A study of Mus musculus with 12 samples.

Results

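Mitosis and chromosome segregation genes encode the kinases, cyclins, kinetochore proteins, spindle motors, condensins and cytokinesis factors that divide a cell. The set holds 45 genes, chosen as a list by function with earlier results of these data known. Of these, 44 had a probe set with a single gene name on the array. A filter on low signal was passed by 21 of them and by 9120 genes in all. Ccnb1, the 45th, is not analysed here. RNA was measured in CD11b+ cells sorted from the hippocampus of 12 female mice from Jackson Laboratory, 1 mouse per Affymetrix array and 3 mice per group. The groups were C57BL/6 mice given a single dose of 10 Gy of X-rays, sham-treated C57BL/6 mice, Balb/c mice given the same dose, and sham-treated Balb/c mice. Irradiation reached a circular field of 1 cm over the forebrain at 6.5 weeks of age, and all mice were analysed 1 month later, at 10.5 weeks. The comparisons ask what irradiation does to these cells in each strain, whether the strains differ in that response, and how they differ with and without it.

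Microglia are the resident macrophages of the brain, and in the healthy adult they divide slowly and renew themselves in place. Most genes of mitosis are silent in resting cells and are transcribed late in the cell cycle, so that their RNA is abundant in dividing cells only. Their promoters are known for a pair of short elements, the CCAAT box, bound by the factor NF-Y, and the cell cycle genes homology region (CHR), through which the DREAM and MuvB complexes hold the genes off in resting cells and switch them on before mitosis.

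The promoters of 6 members that rose in irradiated C57BL/6 mice are printed to show both elements in place. They were chosen for carrying both, so what they share there follows from the choice. Each is the 250 bases before the annotated transcription start, read 5′ to 3′ on the gene's strand, from RefSeq on GRCm38.p6. Capitals mark matches on either strand. The CCAAT box also appears reversed, as ATTGG. The CHR was searched as TTTGAA, which is its usual spelling and reads TTCAAA on the other strand. It was also searched as the variant TTCGAA and as another variant, TTTAAA, and both of these read the same on either strand. The regions are chr7:135716380-135716629 (minus strand) for Mki67, chr10:69352913-69353162 (minus) for Cdk1, chr5:30666636-30666885 (plus) for Cenpa, chr11:99024190-99024439 (minus) for Top2a, chr3:27153879-27154128 (minus) for Ect2 and chr7:127042421-127042670 (minus) for Kif22.
Mki67: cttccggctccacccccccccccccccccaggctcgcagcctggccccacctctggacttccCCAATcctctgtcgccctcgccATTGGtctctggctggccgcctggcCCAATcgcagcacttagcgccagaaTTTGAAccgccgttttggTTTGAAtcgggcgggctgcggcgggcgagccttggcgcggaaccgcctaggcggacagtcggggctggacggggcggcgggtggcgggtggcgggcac
Cdk1: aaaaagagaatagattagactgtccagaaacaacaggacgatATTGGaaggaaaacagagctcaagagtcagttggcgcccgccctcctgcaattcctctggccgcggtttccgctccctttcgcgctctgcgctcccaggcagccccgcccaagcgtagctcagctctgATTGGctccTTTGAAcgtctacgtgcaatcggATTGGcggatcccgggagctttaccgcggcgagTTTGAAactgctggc
Cenpa: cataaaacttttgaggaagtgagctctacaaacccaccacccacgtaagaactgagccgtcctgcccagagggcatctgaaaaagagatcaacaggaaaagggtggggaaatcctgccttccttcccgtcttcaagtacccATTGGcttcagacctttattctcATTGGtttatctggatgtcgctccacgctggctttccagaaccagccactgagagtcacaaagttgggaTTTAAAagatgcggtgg
Top2a: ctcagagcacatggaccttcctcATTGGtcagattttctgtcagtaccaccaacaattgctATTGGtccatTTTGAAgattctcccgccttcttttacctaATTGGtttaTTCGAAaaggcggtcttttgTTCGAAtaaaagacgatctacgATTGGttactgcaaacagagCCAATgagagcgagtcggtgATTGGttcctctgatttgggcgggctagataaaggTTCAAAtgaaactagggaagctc
Ect2: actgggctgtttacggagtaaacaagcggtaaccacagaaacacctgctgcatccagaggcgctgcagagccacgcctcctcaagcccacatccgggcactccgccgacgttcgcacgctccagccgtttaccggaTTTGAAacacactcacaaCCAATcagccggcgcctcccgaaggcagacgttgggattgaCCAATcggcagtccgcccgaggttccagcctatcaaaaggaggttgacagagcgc
Kif22: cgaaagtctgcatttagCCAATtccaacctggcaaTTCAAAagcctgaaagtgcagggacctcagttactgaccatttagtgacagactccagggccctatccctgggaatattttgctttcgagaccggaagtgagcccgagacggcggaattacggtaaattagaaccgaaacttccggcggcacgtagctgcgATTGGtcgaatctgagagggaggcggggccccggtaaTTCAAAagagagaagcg
In the printed stretches Top2a had 6 CCAAT and 4 CHR matches, and Mki67 and Cdk1 each had 3 CCAAT and 2 CHR matches. Cenpa and Ect2 each had 2 CCAAT matches and 1 CHR match, and Kif22 had 2 of each.

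Promoter windows of 300 bases, 250 before and 50 after the start, were at hand for 38 of the 45 members and for 27025 genes in all, with the first listed window used for each gene. TTTGAA was found in 28 of the 38 members (73.7%), against 18.1% of all genes. Any of the 3 CHR spellings was found in 32 members (84.2%), against 29.0% of all genes, and CCAAT in 29 members (76.3%), against 37.9%. Both elements together were found in 28 members (73.7%), against 11.5% of all genes. Both were present in 6 of the 9 members with a window that rose in irradiated C57BL/6 mice. They were also present in 5 of the 9 that passed the filter without rising. Of the 20 others with a window, which are members below the filter and Ccnb1, 17 had both. A match of letters is a description of the window and not a bound site. Kif2c, Nuf2 and Nusap1, which rose, lacked 1 or both elements in this window, and Ccna2 and Smc4 had no entry.

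**Figure D1:**
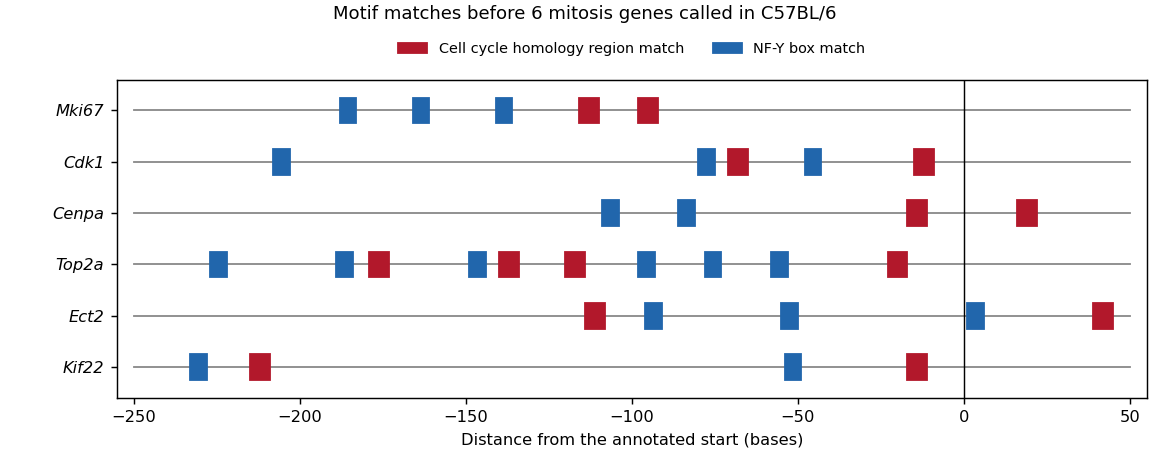
Positions of CCAAT matches (NF-Y box, blue) and CHR matches (red) in the 300-base promoter windows of Mki67, Cdk1, Cenpa, Top2a, Ect2 and Kif22, by distance in bases from the annotated start (x axis, negative before the start). Every gene has at least 1 CHR match and 2 CCAAT matches before the start, and Top2a has the most, 4 and 6.

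The sort was checked against markers of the cells it could hold. The mean log2 value of the 11 microglial markers on the array lay between 13.4 and 13.7 on every array. All 7 T and NK cell markers were under 3 throughout, as were 4 of the 7 immature neuron markers (Dcx, Tubb3, Igfbpl1 and Calb2). Of the 9 neural stem and progenitor markers on the array 3 were under 3 throughout (Pax6, Eomes and Neurog2) and 4 passed the filter, and the mean of the list was 5.13 to 5.79 over all arrays. Markers of border-associated macrophages, astrocytes and oligodendrocytes also had signal on all arrays. In such bulk RNA, more dividing cells and more RNA per dividing cell cannot be told apart. With 3 arrays per group, precision is limited by their number.

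In irradiated C57BL/6 mice, 11 of the 21 members rose and none fell. Among all 9120 genes 2.21% rose and 1.46% fell in the same comparison, 3.67% in all. The median log2 change of the 21 members was 1.41, with a range of -0.17 to 3.02 and 20 members above 0, against a median of -0.04 for all genes. On 17 members every irradiated array lay above every sham array, which was so for 11.4% of all genes, and the other 4 members overlapped. A call here is an adjusted p under 0.05 from limma, with Benjamini-Hochberg adjustment over all genes. An unadjusted p under 0.05 was found for 18 of the 21 members and for 1945 of all 9120 genes. All 21 members had more than the required number of arrays above the filter, from 8 of the 12 arrays for Nuf2 upwards, so that none passed through irradiated C57BL/6 arrays alone.

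The mean log2 value of the 21 members on each array was 7.80, 8.06 and 8.18 in irradiated C57BL/6 mice, against 6.44, 6.46 and 6.75 in sham C57BL/6 mice. In Balb/c mice it was 7.79, 7.87 and 7.39 after irradiation, against 7.75, 7.50 and 7.59 after sham treatment. The sham C57BL/6 arrays stood lowest and apart from the other 9 arrays. The sham C57BL/6 group had the lowest of the 4 group means for 18 of the 21 members, and the irradiated C57BL/6 group had the highest for 15.

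**Figure D2:**
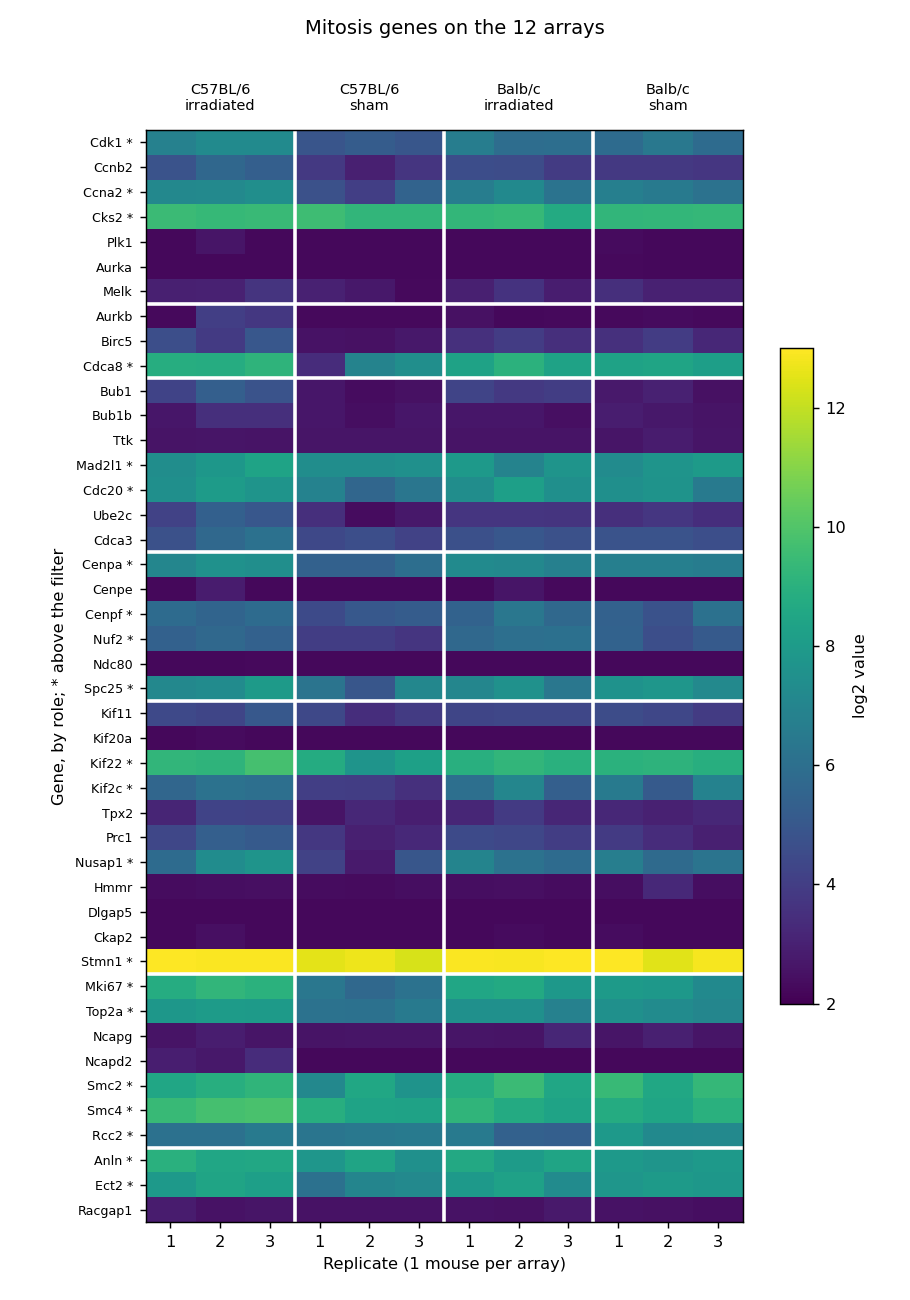
Log2 value (colour) of the 44 members with a named probe set on each of the 12 arrays, in columns by group and replicate and in blocks by role, with an asterisk on the 21 members above the filter. The sham C57BL/6 columns are darkest for most of the members with an asterisk, and 9 members are under 3 on every array.

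Among the kinases and cyclins that drive entry into mitosis, Cdk1 and Ccna2 rose in irradiated C57BL/6 mice. Cdk1, the kinase that starts mitosis, had log2 values of 6.81, 7.26 and 7.26 in irradiated C57BL/6 mice, against 4.89, 5.20 and 4.95 in sham C57BL/6 mice. Every irradiated array lay well above the sham arrays, and the change was 2.10 ± 0.23 (log2 ± SE, 4.29-fold, adjusted p = 0.00121). Its Balb/c values were 6.66, 5.93 and 5.98 after irradiation, against 5.83, 6.39 and 5.83 after sham treatment, and these groups overlapped. Ccna2, the cyclin A that partners Cdk1 and Cdk2, had 7.13, 7.19 and 7.42 in irradiated C57BL/6 mice, against 4.74, 4.06 and 5.48 in sham C57BL/6 mice. The groups did not overlap although the sham arrays were spread over more than 1 log2 unit, and the change was 2.49 ± 0.34 (adjusted p = 0.00484). In Balb/c it had 6.68, 7.24 and 6.20 after irradiation, against 6.75, 6.55 and 6.14 after sham treatment, with overlap. Cks2, a small Cdk-binding protein, differed by 0.10 ± 0.17 in C57BL/6 (adjusted p = 0.765).

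The kinetochore joins chromosomes to the spindle. Cenpa, the histone H3 variant that marks centromeres, had 7.05, 7.58 and 7.45 in irradiated C57BL/6 mice, against 5.43, 5.40 and 5.97 in sham C57BL/6 mice. The irradiated arrays were all more than 1 log2 unit above the sham arrays, and the change was 1.76 ± 0.19 (adjusted p = 0.00121). In Balb/c Cenpa had 7.25, 7.12 and 6.79 after irradiation, against 6.73, 6.75 and 6.64 after sham treatment, close together without overlap. Nuf2, a subunit of the Ndc80 complex that holds microtubule ends, had 5.41, 5.73 and 5.43 in irradiated C57BL/6 mice, against 4.01, 4.0 and 3.69 in sham C57BL/6 mice. The 3 sham arrays were at the bottom of its range, and the change was 1.62 ± 0.20 (adjusted p = 0.00259). In Balb/c Nuf2 had 5.70, 6.01 and 6.05 after irradiation, against 5.47, 4.65 and 5.12 after sham treatment, without overlap. Spc25, another Ndc80 complex subunit, differed by 1.40 ± 0.48 in C57BL/6 (adjusted p = 0.133) and Cenpf, a large kinetochore protein, by 0.85 ± 0.33 (adjusted p = 0.174).

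**Figure D3:**
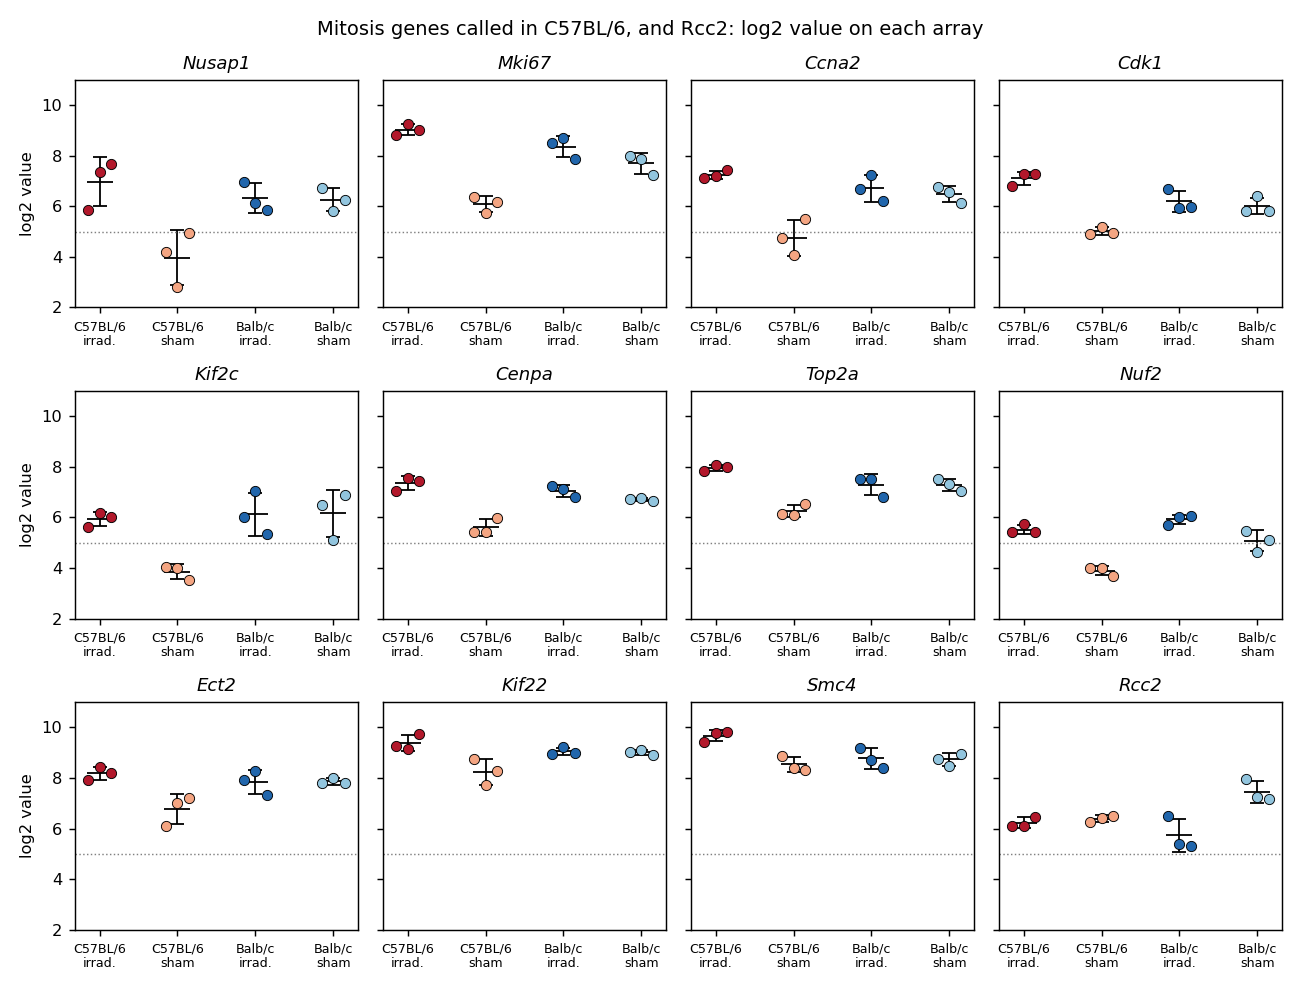
Log2 value (y axis) on each array of the 11 members that rose in irradiated C57BL/6 mice and of Rcc2, with 1 point per mouse, the group mean and SD as bars, and the filter level of 5 as a dotted line. The 3 sham C57BL/6 points of Cdk1, Cenpa and Mki67 lie below all 9 other points, and the sham Balb/c points of Rcc2 lie above all others.

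Of the spindle motors and microtubule factors, 3 rose. Kif22, a kinesin that pushes chromosome arms along the spindle, had 9.25, 9.15 and 9.75 in irradiated C57BL/6 mice, against 8.75, 7.71 and 8.27 in sham C57BL/6 mice. The highest sham array came close to the irradiated ones, and the change was 1.14 ± 0.24 (adjusted p = 0.0280). Kif2c, a kinesin that takes microtubules apart at centromeres, had 5.63, 6.16 and 6.02 in irradiated C57BL/6 mice, against 4.05, 4.0 and 3.53 in sham C57BL/6 mice. The groups were more than 1 log2 unit apart, and the change was 2.08 ± 0.47 (adjusted p = 0.0398). Nusap1, which bundles spindle microtubules, had 5.86, 7.35 and 7.68 in irradiated C57BL/6 mice, against 4.18, 2.80 and 4.92 in sham C57BL/6 mice. Its arrays were widely spread within both groups without overlap, and the change was 3.0 ± 0.58 (adjusted p = 0.0225). For Nusap1, Nuf2 and Kif2c all 3 sham C57BL/6 arrays were under the filter level of 5, so no fold is given for them. Stmn1, which destabilises microtubules, had high signal on every array, between 12.3 and 13.1, and differed by 0.43 ± 0.16 (adjusted p = 0.148).

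In Balb/c mice these motors showed no called change. Kif22 had 8.95, 9.22 and 8.98 after irradiation, against 9.04, 9.09 and 8.90 after sham treatment. Kif2c had 6.01, 7.03 and 5.34 after irradiation, against 6.48, 5.11 and 6.89 after sham treatment. Nusap1 had 6.97, 6.13 and 5.83 after irradiation, against 6.72, 5.81 and 6.24 after sham treatment. All 3 overlapped between the Balb/c groups.

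Among the genes of chromosome structure, Mki67 had the smallest p of all members. Mki67 encodes Ki-67, which coats mitotic chromosomes and is the usual marker of dividing cells. It had 8.81, 9.26 and 9.01 in irradiated C57BL/6 mice, against 6.37, 5.73 and 6.17 in sham C57BL/6 mice. The gap between the groups was over 2 log2 units, and the change was 2.94 ± 0.26 (7.66-fold, adjusted p = 5.28e-04). In Balb/c Mki67 had 8.49, 8.69 and 7.88 after irradiation, against 7.99, 7.87 and 7.23 after sham treatment, with overlap. Top2a, the topoisomerase that untangles sister DNA, had 7.83, 8.05 and 7.99 in irradiated C57BL/6 mice, against 6.15, 6.10 and 6.53 in sham C57BL/6 mice. All irradiated arrays lay above all sham arrays, and the change was 1.70 ± 0.21 (adjusted p = 0.00240). In Balb/c Top2a had 7.53, 7.53 and 6.82 after irradiation, against 7.51, 7.33 and 7.03 after sham treatment, with overlap.

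Smc4, an ATPase of the condensin complex that compacts chromosomes, had 9.42, 9.77 and 9.83 in irradiated C57BL/6 mice, against 8.88, 8.40 and 8.32 in sham C57BL/6 mice. The groups did not overlap, and the change was 1.14 ± 0.23 (adjusted p = 0.0239). The other 2 probe sets of Smc4 gave 1.14 ± 0.28 (adjusted p = 0.0530) and 0.67 ± 0.37 (adjusted p = 0.326), both positive and neither called. In Balb/c Smc4 had 9.20, 8.71 and 8.40 after irradiation, against 8.76, 8.48 and 8.96 after sham treatment, with overlap. Smc2, its condensin partner, differed by 1.10 ± 0.38 in C57BL/6 (adjusted p = 0.132). Rcc2, a protein found at centromeres in mitosis, was the exception among the 21, with 6.10, 6.10 and 6.47 in irradiated C57BL/6 mice, against 6.26, 6.41 and 6.51 in sham C57BL/6 mice. Its C57BL/6 groups overlapped, at -0.17 ± 0.30 (adjusted p = 0.773).

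Ect2, which is needed for cell cleavage, had 7.93, 8.42 and 8.21 in irradiated C57BL/6 mice, against 6.11, 7.01 and 7.19 in sham C57BL/6 mice. The irradiated arrays lay above the sham arrays, and the change was 1.41 ± 0.30 (adjusted p = 0.0294). In Balb/c Ect2 had 7.90, 8.29 and 7.31 after irradiation, against 7.78, 8.01 and 7.80 after sham treatment, with overlap. Anln, the anillin that scaffolds the cleavage furrow, differed by 0.77 ± 0.23 in C57BL/6 without a call (adjusted p = 0.0962).

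No member above the filter of the spindle checkpoint, the anaphase-promoting complex or the chromosomal passenger complex was called on the probe set chosen for it. Cdca8, the borealin subunit of the passenger complex, had 8.84, 8.80 and 9.14 in irradiated C57BL/6 mice, against 3.38, 6.91 and 7.43 in sham C57BL/6 mice. All irradiated arrays lay above all sham arrays, but 1 sham array was more than 3 log2 units below the other sham arrays. The change was 3.02 ± 0.80 (adjusted p = 0.0657), and a second probe set of Cdca8 gave 2.71 ± 0.46 (adjusted p = 0.0131). Cdc20, which activates the anaphase-promoting complex, differed by 1.47 ± 0.37 (adjusted p = 0.0569). Mad2l1, the checkpoint protein that restrains Cdc20, differed by 0.43 ± 0.29 (adjusted p = 0.410).

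Of the 11 calls in irradiated C57BL/6 mice, those of Cdk1, Ccna2, Cenpa, Nuf2, Mki67 and Top2a held in every alternative fit, including each fit that left out 1 array. The number of called members fell to 6 without C57BL/6 irradiated replicate 3 and to 7 without C57BL/6 sham replicate 2. The other 5 calls were less firm, and each was also lost without a filter. Kif22 lost it without C57BL/6 irradiated replicate 1 or 3 or C57BL/6 sham replicate 2 or 3 (adjusted p up to 0.112). Smc4 lost it without C57BL/6 irradiated replicate 2 or 3 or C57BL/6 sham replicate 2 or 3 (up to 0.0978), and Ect2 without C57BL/6 irradiated replicate 2 or 3 or C57BL/6 sham replicate 1 or 2 (up to 0.103). Nusap1 lost it without C57BL/6 irradiated replicate 3 or C57BL/6 sham replicate 2 (up to 0.0908). Kif2c lost it without any 1 of the 6 C57BL/6 arrays, and without Balb/c irradiated replicate 1 or Balb/c sham replicate 1 (up to 0.131). The probe sets of Kif22, Kif2c and Cdc20 carry the suffix for possible cross-hybridisation to other transcripts.

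Markers of other cells also moved with irradiation. The 6 tested markers of recruited monocytes held 3 that rose in C57BL/6 mice, Cd44, Ccr2 and Fn1, and the mean level of the list was 6.54 to 7.72 in irradiated arrays, against 5.31 to 6.49 in sham arrays. Astrocyte markers averaged 10.0 to 10.5 in irradiated C57BL/6 arrays, against 9.17 to 9.80 in sham C57BL/6 arrays, with none of them called. Vim and Sox2 of the progenitor list rose in each strain, and the list averaged 5.42 to 5.60 in irradiated C57BL/6 arrays, against 5.17 to 5.32 in sham C57BL/6 arrays. Neutrophil, border-associated macrophage, and endothelial and pericyte markers had no call in irradiated C57BL/6 mice. The border-associated macrophage markers still had a median log2 change of 0.93, against 0.97 in Balb/c mice. Their list averaged 11.1 to 11.4 in irradiated C57BL/6 arrays, against 9.91 to 11.1 in sham C57BL/6 arrays. For endothelial cells and pericytes it was 6.99 to 7.71 against 7.01 or less, and for neutrophils 3.78 to 6.49 against 3.75 to 5.87. The same lists stood higher after irradiation in Balb/c mice, with monocyte markers at 5.99 to 7.25 in irradiated arrays, against 5.49 to 5.96 in sham arrays. Their part in the rise of the mitosis genes was not tested. RNA integrity was read from control probe sets at both ends of Actb and Gapdh, and their 3′ minus 5′ difference averaged 3.63 ± 0.12 in irradiated C57BL/6 mice, against 3.64 ± 0.13 in sham C57BL/6 mice (SD, n = 3 each). The 18S ribosomal control signal was 11.69 ± 0.12 in irradiated C57BL/6 mice, against 12.16 ± 0.13 in sham C57BL/6 mice, and its part in the result was not tested either.

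**Figure D4:**
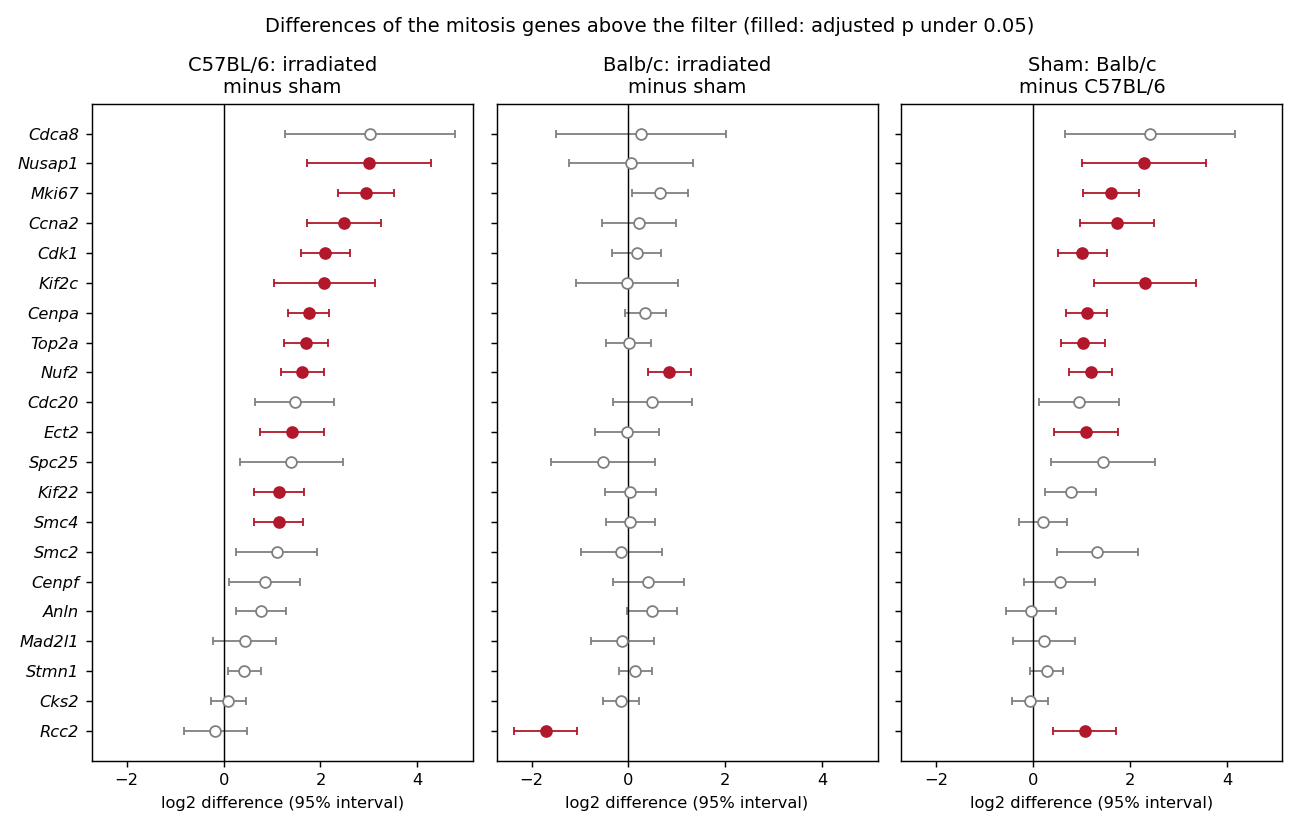
Log2 difference with its 95% interval (x axis) of each of the 21 members above the filter, for irradiated minus sham in C57BL/6, irradiated minus sham in Balb/c, and Balb/c minus C57BL/6 in sham mice, with called differences filled. The members are in the order of their C57BL/6 change, with 11, 2 and 10 called in the 3 panels.

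In irradiated Balb/c mice 1 member rose and 1 fell, where 3.26% of all genes rose and 2.89% fell. The median log2 change of the 21 members was 0.06, with a range of -1.71 to 0.84, against -0.04 for all genes. An unadjusted p under 0.05 in limma was found for 3 of the 21 members and for 2082 of all 9120 genes. The irradiated arrays lay wholly above the sham arrays for 3 members, Nuf2, Anln and Cenpa, which was so for 12.8% of all genes. They lay wholly below for Rcc2 alone, which was so for 16.3%. Nuf2 rose by 0.84 ± 0.20 (adjusted p = 0.0350). Rcc2 fell, with 6.48, 5.40 and 5.33 in irradiated Balb/c mice, against 7.94, 7.23 and 7.18 in sham Balb/c mice, a change of -1.71 ± 0.30 (adjusted p = 0.00931).

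For the other members the intervals bound a change in Balb/c mice to differing degrees. For Cdk1 the difference was 0.17 ± 0.23 with a 95% interval of -0.33 to 0.68, for Top2a 0.00 ± 0.21 (-0.45 to 0.46) and for Ccna2 0.22 ± 0.34 (-0.54 to 0.98). Nusap1 had 0.06 ± 0.58 (-1.22 to 1.34), which leaves a 2-fold change in either direction within its error. The widest interval was that of Cdca8, at 0.26 ± 0.80 (-1.50 to 2.02). Kif2c (-1.08 to 1.01) and Spc25 (-1.60 to 0.54) also had wide intervals. For Mki67 the difference was 0.66 ± 0.26 (0.08 to 1.23), above 0 in its own interval and without a call (adjusted p = 0.168). The 3′ minus 5′ difference was 4.25 ± 0.56 in irradiated Balb/c mice, against 3.69 ± 0.14 in sham Balb/c mice (SD, n = 3 each). With it as a covariate neither call held, at 0.70 ± 0.26 for Nuf2 (adjusted p = 0.238) and -1.27 ± 0.33 for Rcc2 (adjusted p = 0.107). Nuf2 also lost its call without Balb/c irradiated replicate 2 or 3 or Balb/c sham replicate 2 or 3 (adjusted p up to 0.106).

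More markers of other cells were called in irradiated Balb/c mice than in irradiated C57BL/6 mice, a difference that was not tested. S100a8 and S100a9 of the 4 tested neutrophil markers rose, and that list averaged 4.21 to 6.08 in irradiated Balb/c arrays, against 3.12 to 3.30 in sham Balb/c arrays. F13a1 and Mrc1 of border-associated macrophages rose, with a list mean of 10.3 to 10.7 in irradiated arrays, against 9.57 to 9.82 in sham arrays. Pdgfrb and Rgs5 of endothelial cells and pericytes rose, with a list mean of 7.62 to 8.09 in irradiated arrays, against 6.78 to 7.46 in sham arrays. Of the astrocyte markers 3 of 7 rose, with a median log2 change of 0.81. The progenitor list averaged 5.64 to 5.79 in irradiated Balb/c arrays, against 5.13 to 5.29 in sham Balb/c arrays. Their part in the Balb/c values of the mitosis genes was not tested.

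**Figure D5:**
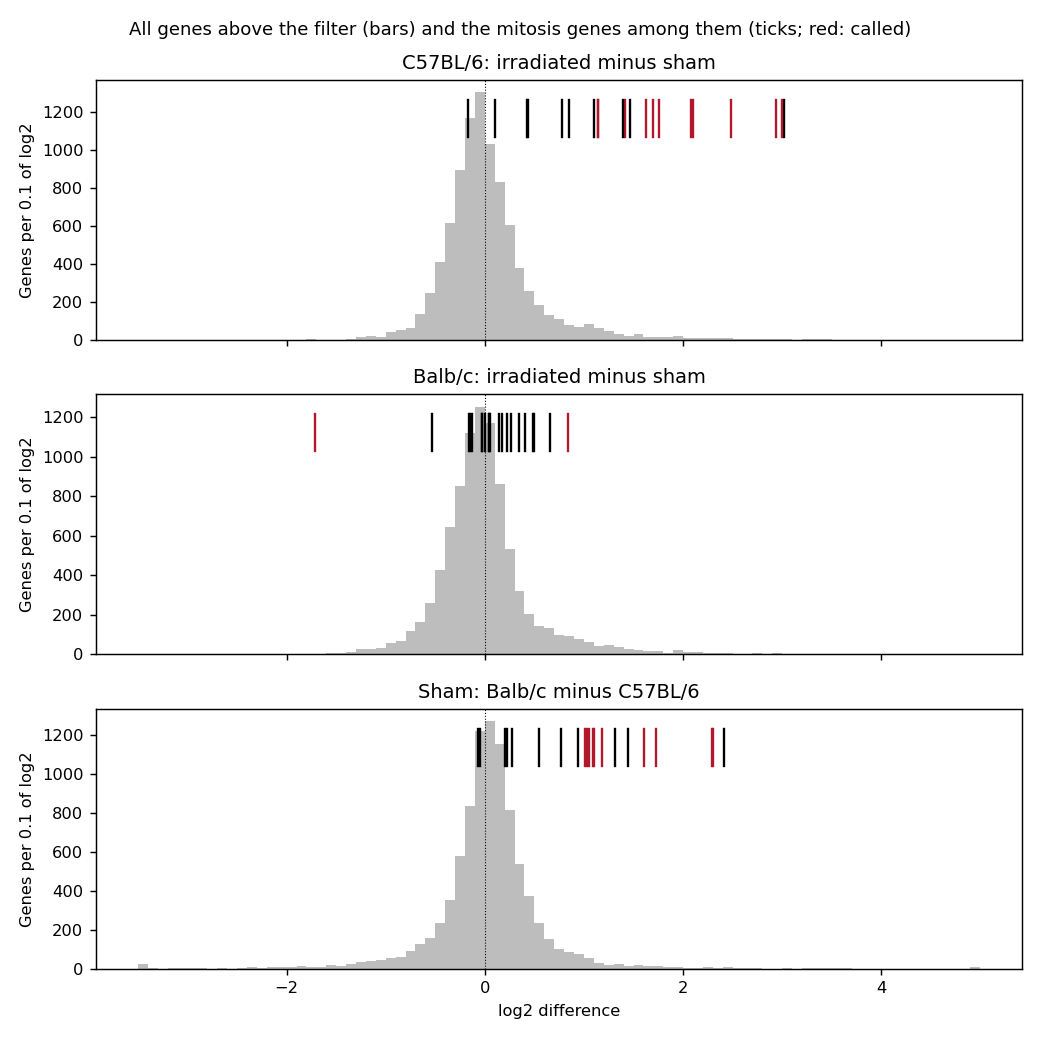
Number of genes per 0.1 of log2 difference (bars) among all 9120 genes above the filter, with the 21 members as ticks (red where called), for the same 3 comparisons as the plot of differences. Genes beyond -3.5 or 5 are counted in the outermost bars. The members' median is 1.41 in irradiated C57BL/6 mice, 0.06 in irradiated Balb/c mice and 1.05 in sham Balb/c mice.

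The difference between the strains in the response was tested as an interaction, the Balb/c change minus the C57BL/6 change. All 21 members had a value below 0, with a median of -1.41 and a range of -2.94 to -0.26, where all genes had a median of -0.02 and 47.3% lay above 0. No member was called by limma, where 0.0768% of all genes were called (7 genes), 0.0439% with a positive value and 0.0329% with a negative one. An unadjusted p under 0.05 was found for 15 of the 21 members and for 735 of all 9120 genes. Mki67 came nearest at -2.28 ± 0.37 (adjusted p = 0.0822), then Cdk1 at -1.93 ± 0.32 (adjusted p = 0.0857) and Top2a at -1.70 ± 0.29 (adjusted p = 0.102). Cdk1 was called without Balb/c irradiated replicate 1 (adjusted p = 0.0350), and Mki67 without Balb/c sham replicate 3 (adjusted p = 0.0426). With all arrays, Mki67 was also called when the variances were fitted with a trend and robustly (adjusted p = 0.0336).

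Without irradiation, sham Balb/c mice had higher levels of 10 members than sham C57BL/6 mice, and none was lower. Among all genes 5.22% were higher and 5.24% lower. The median difference of the members was 1.05, against 0.04 for all genes, and 19 of the 21 lay above 0. The Balb/c sham arrays lay wholly above the C57BL/6 sham arrays for 13 members, against 16.3% of all genes. This comparison uses the same C57BL/6 sham arrays as the irradiation comparison in C57BL/6, so both sets of values are not independent of each other.

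Kif2c differed by 2.30 ± 0.47 (adjusted p = 0.00944), Nusap1 by 2.29 ± 0.58 (adjusted p = 0.0286) and Ccna2 by 1.72 ± 0.34 (adjusted p = 0.00815). Mki67 differed by 1.61 ± 0.26 (3.05-fold, adjusted p = 0.00241), with a mean of 7.70 ± 0.41 in sham Balb/c mice, against 6.09 ± 0.33 in sham C57BL/6 mice (SD, n = 3 each). Nuf2 and Cenpa, the kinetochore members, differed by 1.18 ± 0.20 (adjusted p = 0.00317) and 1.10 ± 0.19 (adjusted p = 0.00354). Top2a, Cdk1, Ect2 and Rcc2 were also higher, by 1.01 to 1.09. Rcc2 was 7.94, 7.23 and 7.18 in sham Balb/c mice, against 6.26, 6.41 and 6.51 in sham C57BL/6 mice, without overlap. The calls of Ccna2, Cenpa, Nuf2, Mki67 and Top2a held in every alternative, and that of Kif2c was lost only without a filter (adjusted p = 0.0527).

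The calls that depended on 1 array were those of Cdk1, Nusap1, Ect2 and Rcc2. Cdk1 lost its call without C57BL/6 sham replicate 1 or 3 or Balb/c sham replicate 2 (adjusted p up to 0.0659). Nusap1 lost it without C57BL/6 sham replicate 1 or 2 or Balb/c sham replicate 1 or 3 (up to 0.108). Rcc2 lost it without any 1 of the 6 sham arrays or the 3 irradiated C57BL/6 arrays (up to 0.174). Ect2 lost it without Balb/c sham replicate 1, 2 or 3, C57BL/6 sham replicate 1 or 2, Balb/c irradiated replicate 1 or C57BL/6 irradiated replicate 3 (up to 0.123). Markers of recruited monocytes were not higher in sham Balb/c mice, at 5.49 to 5.96, against 5.31 to 6.49 in sham C57BL/6 mice, and border-associated macrophage markers stood at 9.57 to 9.82, against 9.91 to 11.1. S100a8 and S100a9 of neutrophils, Cd79b of B cells and Pf4 of border-associated macrophages were called lower in sham Balb/c mice, as were 2 of the 11 microglial markers. Other lists leaned higher in sham Balb/c mice without a call. Endothelial and pericyte markers had a median difference of 0.53, with list means of 6.78 to 7.46, against 6.58 to 7.01. Oligodendrocyte precursor markers had a median difference of 0.47, with list means of 4.66 to 4.75, against 4.39 to 4.68. Their part in the differences of the mitosis genes was not tested.

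In irradiated mice, Balb/c had lower levels of 2 members than C57BL/6 and higher levels of none, where 4.59% of all genes were lower and 4.38% higher, 8.97% in all. The 2 were Cdk1, at -0.93 ± 0.23 (adjusted p = 0.0291), and Smc4, at -0.90 ± 0.23 (adjusted p = 0.0317). The other 2 probe sets of Smc4 gave -0.92 ± 0.28 (adjusted p = 0.0686) and -0.46 ± 0.37 (adjusted p = 0.524), neither called. The Smc4 call was also lost with the mean of its probe sets. The median difference of the 21 members was -0.34, with 17 below 0. All Balb/c irradiated arrays lay below all C57BL/6 irradiated arrays for 5 members, Cdk1, Smc4, Mki67, Top2a and Cks2, which was so for 12.3% of all genes. Both calls were lost without C57BL/6 irradiated replicate 2 or 3 or Balb/c irradiated replicate 2 or 3 (adjusted p up to 0.111 for Cdk1 and 0.110 for Smc4), and with the 3′ minus 5′ difference as a covariate (0.456 and 0.344).

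A total of 23 members were below the filter and so outside the counts above. Of these, 9 were under 3 on all 12 arrays, near the bottom of the scale: Plk1, Aurka, Ttk, Cenpe, Ndc80, Kif20a, Dlgap5, Ckap2 and Racgap1. Whether those probe sets detect their gene was not tested. Another 7 passed 5 on 1 or 2 arrays, and all of those arrays were irradiated C57BL/6 arrays: Ccnb2, Birc5, Bub1, Ube2c, Cdca3, Kif11 and Prc1. Bub1, a kinase of the spindle checkpoint, had 4.22, 5.33 and 4.81 in irradiated C57BL/6 mice, against 2.65, 2.36 and 2.51 in sham C57BL/6 mice. Ccnb2, a B-type cyclin, had 4.82, 5.69 and 5.32 in irradiated C57BL/6 mice, against 3.81, 2.96 and 3.70 in sham C57BL/6 mice. Both had no overlap between these groups. Their Balb/c values were 4.27, 3.83 and 4.01 after irradiation, against 2.77, 3.02 and 2.51 after sham treatment, for Bub1, and 4.61, 4.57 and 3.90 against 3.80, 3.82 and 3.72 for Ccnb2. Prc1 had 4.46, 4.36 and 4.0 in irradiated Balb/c mice, against 3.88, 3.40 and 2.96 in sham Balb/c mice, also without overlap. The highest of the 12 arrays was an irradiated C57BL/6 array for 19 of the 23. This count includes members under 3 on all 12 arrays, such as Dlgap5 (at most 2.26), Ndc80 (2.29) and Kif20a (2.31). The lowest value of the scale is 2.23, so their highest array is no sign of a rise. The shares of all genes below the filter were not computed for this count or for that of the 7 members. Birc5, the survivin subunit of the passenger complex, had 4.66, 3.88 and 5.0 in irradiated C57BL/6 mice, against 2.54, 2.50 and 2.70 in sham C57BL/6 mice. Ube2c, the ubiquitin-conjugating enzyme of the anaphase-promoting complex, had 4.17, 5.37 and 5.0 in irradiated C57BL/6 mice, against 3.50, 2.36 and 2.72 in sham C57BL/6 mice. Prc1, which cross-links microtubules in the spindle midzone, had 4.33, 5.32 and 5.11 in irradiated C57BL/6 mice, against 3.79, 2.99 and 3.26 in sham C57BL/6 mice. None of the 3 overlapped between these groups. Cdca3, a mitotic-entry factor, had 4.75, 5.72 and 6.12 in irradiated C57BL/6 mice, against 4.40, 4.65 and 4.19 in sham C57BL/6 mice, also without overlap. Kif11, the motor that pushes spindle poles apart, had 4.44, 4.32 and 5.01 in irradiated C57BL/6 mice, against 4.38, 3.43 and 3.90 in sham C57BL/6 mice, and its groups overlapped. In all, 10 of the 23 members had every irradiated C57BL/6 array above every sham C57BL/6 array, which was so for 2.28% of the 9073 genes below the filter. Some of the 10 were barely separated near the bottom of the scale. The lowest irradiated and highest sham C57BL/6 arrays were 2.2258 and 2.2257 for Kif20a, 2.54 and 2.53 for Racgap1, and 2.674 and 2.672 for Bub1b. Such gaps are no sign of a rise. In a fit of all 18193 genes without a filter 0.555% of genes rose in irradiated C57BL/6 mice, and 5 of the 23 members did. These were Bub1 at 2.28 ± 0.26 (adjusted p = 0.0131), Birc5 at 1.93 ± 0.30 (adjusted p = 0.0287), Ube2c at 1.99 ± 0.34 (adjusted p = 0.0431), Ccnb2 at 1.79 ± 0.30 (adjusted p = 0.0389) and Ncapd2, a condensin subunit, at 0.77 ± 0.13 (adjusted p = 0.0431). Ncapd2 had 2.92, 2.73 and 3.38 in irradiated C57BL/6 mice, against 2.23, 2.23 and 2.25 in sham C57BL/6 mice, at the bottom of the scale. The calls of Kif22, Kif2c, Nusap1, Smc4 and Ect2 were lost in this fit, so that 11 of the 44 members were called in it.

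Other genes of mitosis followed in part. Of 81 further mitosis genes listed for comparison 29 passed the filter, and 6 of them rose and none fell in irradiated C57BL/6 mice, with a median of 0.13. Of all genes 2.21% rose there. Cep55, which recruits the machinery of the final cut between daughter cells, changed by 2.46 ± 0.33 (adjusted p = 0.00442) and Pbk, a mitotic kinase, by 2.02 ± 0.31 (adjusted p = 0.00669). Cdca5, which protects sister chromatid cohesion, changed by 2.21 ± 0.37 (adjusted p = 0.0101), and Shcbp1 by 2.20 ± 0.39 (adjusted p = 0.0145). In irradiated Balb/c mice none of the 29 was called. Between irradiated strains 3 of the 29 were lower in Balb/c mice (Pttg1, Arhgap11a and Ncapg2) and none higher. Of all genes 4.59% were lower and 4.38% higher there. Between sham strains 4 were higher in Balb/c mice, Pbk at 1.91 ± 0.31 (adjusted p = 0.00212), Shcbp1 at 1.74 ± 0.39 (adjusted p = 0.0146), Cep55 at 1.52 ± 0.33 (adjusted p = 0.0134) and Zwilch at 1.30 ± 0.33 (adjusted p = 0.0296), and 2 were lower, Pttg1 and Arhgap11a, with a median of 0.28. Of all genes 5.22% were higher and 5.24% lower in sham Balb/c mice. Pttg1, the securin that restrains separase, was lower in Balb/c mice at -2.63 ± 0.22 in irradiated mice (adjusted p = 2.79e-05) and -2.81 ± 0.22 in sham mice (adjusted p = 1.39e-05).

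Genes of DNA replication, which acts before mitosis, had 3 rises and no fall among the 28 of 43 listed that passed the filter in irradiated C57BL/6 mice, with a median of 0.48, where 2.21% of all genes rose. Rrm2, a subunit of ribonucleotide reductase, rose by 3.45 ± 0.45 (adjusted p = 0.00354), Ccne2, cyclin E2, by 1.85 ± 0.41 (adjusted p = 0.0370) and Mcm5, part of the replicative helicase, by 0.82 ± 0.14 (adjusted p = 0.0144). In irradiated Balb/c mice none rose and 2 fell, Mcm5 at -0.95 ± 0.14 (adjusted p = 0.00435) and Rfc5, a subunit of the clamp loader, at -0.71 ± 0.15 (adjusted p = 0.0226), where 2.89% of all genes fell. The Mcm5 change differed between the strains in the interaction test, at -1.77 ± 0.20 (adjusted p = 0.0101), 1 of the 7 genes called there. Between irradiated strains 5 of the 28 were lower in Balb/c mice (Mcm3, Mcm5, Mcm6, Mcm7 and Rfc5) and none higher, where 4.59% of all genes were lower. Between sham strains 5 were higher in Balb/c mice (Rrm2, Ccne2, Prim1, Mcm5 and Gins1) and 1 lower (Mcm3). Of all genes 5.22% were higher and 5.24% lower there. Of the 12 tested regulators in the DREAM, RB and E2F families E2f8, a repressor of the cycle, was the 1 called in irradiated C57BL/6 mice, where it rose by 2.26 ± 0.53 (adjusted p = 0.0439). Rbl2, the p130 pocket protein of DREAM, rose in irradiated Balb/c mice by 0.93 ± 0.19 (adjusted p = 0.0168). It was also higher in Balb/c than in C57BL/6 mice, by 1.43 ± 0.19 in irradiated mice (adjusted p = 6.99e-04) and 0.93 ± 0.19 in sham mice (adjusted p = 0.00856). E2f2, an activating E2F, was also higher in Balb/c mice. It differed by 1.55 ± 0.39 in irradiated mice (adjusted p = 0.0324) and by 2.60 ± 0.39 in sham mice (adjusted p = 0.00141). Tfdp1 was higher in sham Balb/c than in sham C57BL/6 mice by 0.54 ± 0.14 (adjusted p = 0.0310). So 2 of the 12 were called between irradiated strains and 3 between sham strains, all higher in Balb/c mice. Of all genes 4.38% and 5.22% were higher there.

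Cdkn1a encodes p21, the Cdk inhibitor that p53 induces and that stops the cell cycle. It had 12.34, 12.19 and 12.05 in irradiated C57BL/6 mice, against 7.61, 7.54 and 8.39 in sham C57BL/6 mice, a change of 4.35 ± 0.21 (adjusted p = 3.90e-06). It had 12.41, 12.58 and 12.72 in irradiated Balb/c mice, against 9.47, 9.30 and 9.60 in sham Balb/c mice, a change of 3.12 ± 0.21 (adjusted p = 4.55e-05). In both strains all irradiated arrays lay far above the sham arrays, so that in C57BL/6 mice the inhibitor and 11 genes of mitosis were higher in the same RNA. Sham Balb/c mice also had more of it than sham C57BL/6 mice, by 1.61 ± 0.21 (adjusted p = 4.86e-04). Of the 6 Cdk inhibitors tested, Cdkn2b was also higher in sham Balb/c mice, by 1.09 ± 0.31 (adjusted p = 0.04997). Cdkn2c was lower in irradiated Balb/c than in irradiated C57BL/6 mice, at -1.24 ± 0.33 (adjusted p = 0.0383). Of all genes 5.22% were higher in sham Balb/c mice and 4.59% lower in irradiated Balb/c mice.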

How the data were processed

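Hippocampal CD11b+ cells of 12 mice, 5000 to 10000 cells per animal with an RNA integrity number above 7.4, were amplified in 2 rounds, per the labels' protocols. The authors deposited 1 log2 value for each of 45101 probe sets and array. These come from GCRMA, whose version is not given, per the submitters' processing notes. Values ran from 2.23 to 16.2, and the sorted values of all arrays were equal within 0.001. Groups come from the sample titles, with 3 arrays each, and the labels name no batch.

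A single gene symbol was annotated for 34945 probe sets, several for 932 and no symbol for 9160, while 64 were controls. The Entrez identifier gave current symbols for 34741. Where a gene had several probe sets, the one brightest on average stood for it, which gave 18193 genes. A gene was tested where at least 3 arrays were above 5, as for 9120 genes. The model in limma 3.58.1 (R 4.3.3) had a mean for each group and left 8 residual degrees of freedom. Benjamini-Hochberg adjustment ran over all tested genes of a contrast. The fit was tested on simulated data. Intervals are 95% intervals of limma.

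The members, the comparison lists and the rules were chosen with earlier results of these data known. Members called in any contrast are given array by array, and not every called gene of a comparison list is named. Cdkn1a is named whatever it shows. Promoters printed are those of up to 6 members that rose in irradiated C57BL/6 mice, by fold, with both motifs. As alternatives, the filter was dropped or raised to 7, values were floored at 4, arrays were centred, and probe sets were averaged or kept apart. Further ones were array weights, a trended robust eBayes, a replicate block, fits of the compared groups alone, an adjusted p under 0.1, the 3′ minus 5′ difference as a covariate, and leaving out arrays.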

Additional observations from a re-analysis of the deposited data

How the results depend on the processing

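Of 105 pairs of a member and a comparison, 25 were called, and 11 of these kept their call in every alternative run, of which there were up to 25. No called pair changed its direction, and 23 pairs without a call had a sign that differed in some alternative. Members called in irradiated C57BL/6 mice numbered 11, against 7 in a fit of the compared groups alone and 6 to 12 with 1 array left out. They numbered 6 without a pair of arrays, the third irradiated C57BL/6 and the second irradiated Balb/c replicate. In irradiated Balb/c mice they numbered 2, against 1 without a filter, with a filter at 7, with trend and robust, with array weights, with the replicate block or without that pair. They numbered 0 with the 3′ minus 5′ covariate or in the groups alone, and 1 to 2 with 1 array left out. In the interaction they numbered 0, against 1 with trend and robust, 2 at an adjusted p under 0.1 and 0 to 1 with 1 array left out. Between irradiated strains they numbered 2, against 1 without a filter, with a filter at 7, with the mean of probe sets or with array weights. They numbered 0 with the covariate, without that pair or in the groups alone, and 0 to 3 with 1 array left out. Between sham strains they numbered 10, against 5 without a filter and 7 to 11 with 1 array left out.

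Over all genes, 335 were called in irradiated C57BL/6 mice, against 155 without a filter, 104 without that pair, 96 in the groups alone, 725 at an adjusted p under 0.1 and 113 to 351 with 1 array left out. In irradiated Balb/c mice 561 were called, against 283 without a filter, 104 with the covariate, 361 without that pair, 364 in the groups alone, 1076 at an adjusted p under 0.1 and 218 to 592 with 1 array left out. In the interaction 7 were called, against 2 without a filter or without that pair, 3 with the covariate, 11 at an adjusted p under 0.1 and 2 to 8 with 1 array left out. Between irradiated strains 818 were called, against 336 with the covariate, 450 without that pair, 533 in the groups alone and 576 to 847 with 1 array left out. Between sham strains 954 were called, with 681 to 939 when 1 array was left out. Fits without a filter adjust over more genes and fits of the groups alone have fewer arrays. Whether these or other features of a setting changed the counts was not tested for any setting.

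Groups share replicate numbers, and 8 of 12 arrays correlated best with an array of their own number. Of 18 same-numbered pairs of arrays 9 deviated together with a correlation over 0.1 (median 0.10, range -0.05 to 0.45). The main fit did not pair the mice by number, and whether arrays of the same number share a batch was not tested. With the replicate block 10 members were called in irradiated C57BL/6 mice, 1 in irradiated Balb/c mice, 0 in the interaction, 2 between irradiated strains and 10 between sham strains. Over all genes the block gave 378, 580, 7, 793 and 947 calls in the same order. Signal near the bottom of the scale limits the 23 members below the filter.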
